A study of Mus musculus with 16 samples.

Results

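The genes described here encode the membrane proteins of cell-cell junctions: claudins, numbered cadherins, numbered protocadherins, connexins of the Gja, Gjb and Gjc groups, and the junctional adhesion molecules Jam2 and Jam3. They were taken by symbol (Cldn, Cdh, Pcdh, Gja, Gjb, Gjc or Jam followed by a number) from a table of gene expression, in which 74 of 41258 entries matched: 23 claudins, 22 cadherins, 11 protocadherins, 16 connexins and 2 JAMs. Expression had been measured by polyA RNA sequencing of mouse embryonic stem cells in 4 groups of 2 libraries each. Wild-type cells (line v65) and Dgcr8-/- cells (line ES1), both of a 129/C57BL/6 background, were each sampled in 2iL and after 48 h of differentiation in N2B27 with bFGF and KSR. 2iL is a medium with inhibitors of MEK and GSK3 plus the cytokine LIF, which holds the cells in the naive state of pluripotency; Dgcr8 is the protein that, with Drosha, makes the first cut of most microRNA precursors. Each genotype was represented by 1 line, so genotype and line cannot be told apart, and the labels call the libraries of a group replicates without saying what was repeated, so p-values measure the spread between these libraries, which may be technical.

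Epithelial cells are joined by 3 kinds of junction to which these genes contribute. Classical cadherins bind their like on the next cell through calcium-dependent ectodomains and hold the actin cytoskeleton through catenins, in adherens junctions. Claudins form the strands of tight junctions that seal or selectively open the space between cells, with JAMs and occludin beside them, and connexins assemble into gap junction channels through which ions and small molecules pass. Embryonic stem cells and the epiblast are epithelial, with E-cadherin as their main cadherin, and the epiblast becomes a polarised columnar epithelium after implantation.

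The labels were checked on Dgcr8 and on markers of cell state. Dgcr8 stood at 18.3 and 19.2 FPKM (fragments per kilobase of transcript, scaled to library size, and so a level corrected for gene length) in wild-type 2iL libraries, at 20.7 and 20.9 in wild-type 48 h libraries, at 9.11 and 9.33 in Dgcr8-/- 2iL libraries and at 7.84 and 7.80 in Dgcr8-/- 48 h libraries. The knockout libraries were lower, with a transcript signal still present. The 6 naive markers (Nanog, Esrrb, Klf4, Tfcp2l1, Zfp42 and Tbx3) summed to 691 and 703 FPKM in wild-type 2iL libraries and to 32.3 and 31.8 at 48 h, against 749 and 789.9 and then 241 and 233 in the knockout. Read numbers per library are not given by an FPKM table, so depth is unknown; the libraries' FPKM totals lay between 475271 and 548453, and between 11415 and 12030 genes reached 1 FPKM.

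Of the 74 genes, 24 reached 1 FPKM in at least 2 libraries and were tested: 7 cadherins, 7 claudins, 7 connexins, 2 JAMs and 1 protocadherin. Another 44 had some signal but did not pass; no value among them exceeded 1.04 FPKM, which was that of Pcdh19, a protocadherin of neural development, in wild-type 2iL replicate 2. The last 6 were listed at 0 in every library: Cdh16, Cldn13, Cldn17, Cldn22, Cldn24 and Gjb6. Many low members are genes of other tissues. The endothelial cadherin Cdh5 did not exceed 0.0642 FPKM, the mesenchymal cadherin Cdh11 0.121, and the epidermal claudin Cldn1 0.288. Of the tested genes, 11 were at 1 FPKM or more in all 8 libraries, among them Cdh1, Cdh2, Cdh3, Cdh24, Cldn3, Cldn4, Cldn12, Jam3, Gja1 and Gjc1. The other 13 fell below 1 FPKM in at least 1 library, so several of them passed only through the group where they were high and could hardly fail to differ; the counts of calls given here describe these genes and are no evidence about the families. The number at 1 FPKM or more in both libraries of a group was 16 in wild-type 2iL, 18 in wild-type 48 h, 18 in knockout 2iL and 21 in knockout 48 h.

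**Figure D1:**
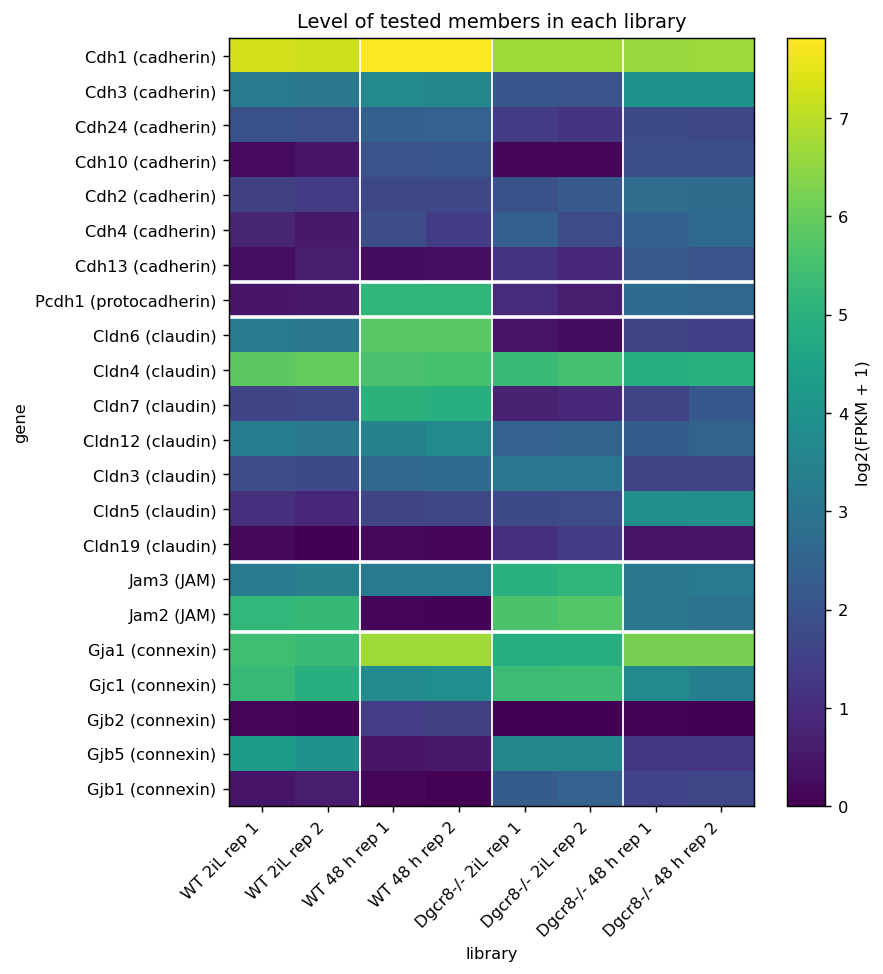
Level of tested members (rows, grouped by family) in each of the 8 libraries (columns) as log2(FPKM + 1), with lighter colours for higher values. Cdh1 is the brightest row in every library, while Jam2 and Gjb5 are brighter in the 2iL libraries than at 48 h and Cldn6, Cldn7 and Pcdh1 are brightest in the wild-type 48 h libraries.

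E-cadherin (Cdh1) was the most abundant member in all 4 groups. In wild-type 2iL cells, high levels were also those of the claudin Cldn4 (mean 58.9 FPKM), the connexin Gja1 (40.2) and Jam2 (35.8); Jam2 and the next gene, the connexin Gjc1 (33.5), overlapped between libraries. By 48 h the wild-type order was Cdh1, Gja1 (102), Cldn6 (54.3), Cldn4 (46.1), the protocadherin Pcdh1 (34.0) and Cldn7 (30.7), each below the one before in both libraries. In knockout 2iL cells Jam2 (49.3) lay above Cldn4 (41.0), and Cldn4 overlapped with Gjc1 (40.6). At 48 h knockout cells had Cdh1, Gja1 (72.8), Cldn4 (29.7), the P-cadherin gene Cdh3 (15.0) and the claudin Cldn5 (13.5) in front.

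When wild-type cells left 2iL, Cldn6, Cldn7 and Pcdh1 rose, Jam2 and the connexin Gjb5 fell to low levels, and Cdh1 rose moderately. Differences are on the scale of log2(FPKM + 1), which understates the change of low genes, and were tested with limma; a gene was called changed at a Benjamini-Hochberg adjusted p below 0.05 over all 13172 tested genes. In wild-type cells 13 members rose and 7 fell, where 30.9% and 25.6% of all tested genes did so (56.5% in either direction). By at least 2-fold, 6 rose and 5 fell, against 7.78% and 6.13% of all genes (13.9% in either direction). In knockout cells 10 rose and 10 fell (all genes: 26.5% and 21.8%, together 48.3%), and 8 rises and 7 falls were of at least 2-fold (5.14% and 4.05%, together 9.19%). Between the genotypes in 2iL, 9 members were higher and 10 lower in the knockout (30.6% and 32.8% of all genes, together 63.4%), and 5 and 2 by at least 2-fold (7.56% and 4.43%, together 12.0%). At 48 h, 9 were higher and 10 lower (33.3% and 38.5%, together 71.8%), and 5 and 7 by at least 2-fold (11.3% and 8.42%, together 19.7%). The 48 h change itself differed between the genotypes (the interaction, knockout change minus wild-type change) for 8 members in the higher and 8 in the lower direction (21.1% and 21.7% of all genes, together 42.8%), and by at least 2-fold for 5 and 6 (6.29% and 6.23%, together 12.5%). The median log2 difference of the tested members was 0.41 in wild-type cells and -0.02 in knockout cells, beside 0.03 over all tested genes in each. The comparisons share libraries, so their counts are not independent.

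**Figure D2:**
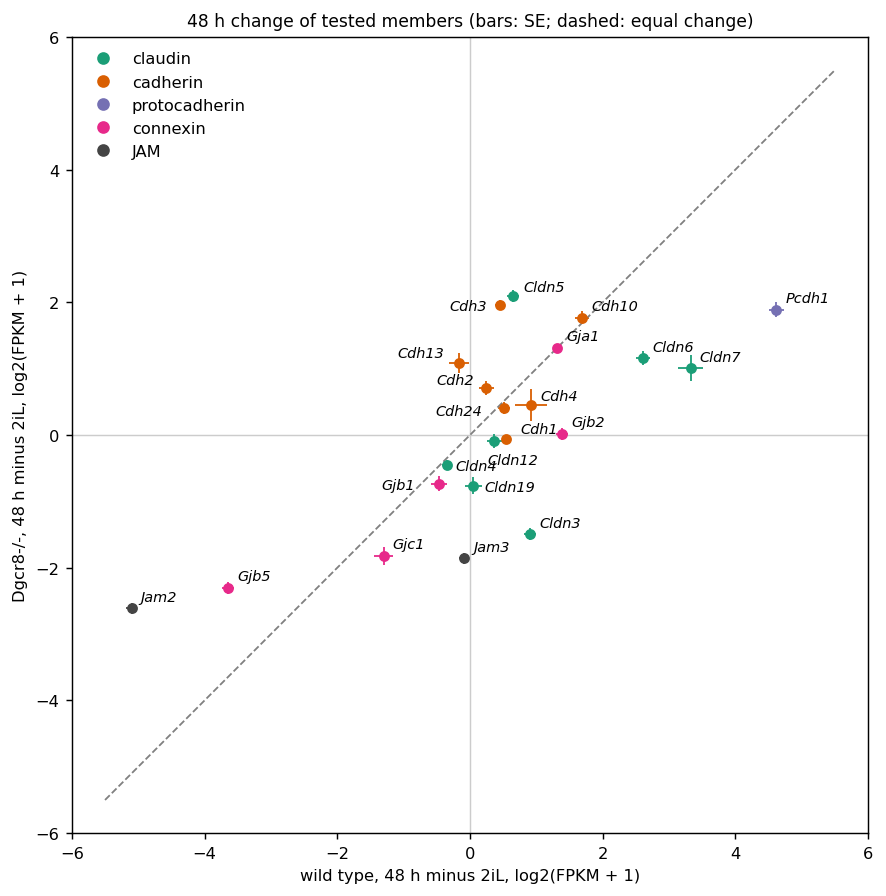
Change from 2iL to 48 h of tested members in wild-type cells (horizontal axis) and in Dgcr8-/- cells (vertical axis), in log2(FPKM + 1), with SE bars and colours by family; the dashed line marks equal change. Pcdh1, Cldn6 and Cldn7 lie right of the line, Jam2 and Gjb5 above it, Gja1 close to it, and Cldn3 moved in opposite directions.

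Among the cadherins, Cdh1 differed between the genotypes. Its levels were 156 and 149 FPKM in wild-type 2iL libraries and 223 and 224 at 48 h, against 104 and 102 and then 96.6 and 100.4 in the knockout. The wild-type libraries thus lay above every knockout library in both conditions. The wild-type rise was 0.55 (SE 0.04, limma adjusted p = 2.7e-05) and the knockout difference -0.06 (adjusted p = 0.228); the interaction was -0.61 (SE 0.06, adjusted p = 2.0e-04). At 48 h the knockout held 2.27-fold less Cdh1 than the wild type (log2 -1.17, adjusted p = 5.3e-07).

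P-cadherin (Cdh3), whose gene lies next to Cdh1, and N-cadherin (Cdh2), the cadherin of neural and mesenchymal cells, followed another course. Cdh3 measured 8.50 and 7.70 FPKM in wild-type 2iL cells and 11.7 and 11.2 at 48 h, and 3.24 and 3.01 and then 14.7 and 15.3 in the knockout. It started lower in the knockout and ended higher: the wild-type rise was 0.45 (SE 0.07), the knockout rise 1.96 (SE 0.07), and the interaction 1.50 (SE 0.10, limma adjusted p = 5.4e-05). Cdh2 was low, at 1.81 and 1.58 FPKM in wild-type 2iL cells, 2.21 and 2.21 at 48 h, 2.83 and 3.62 in knockout 2iL cells and 5.93 and 5.85 in knockout 48 h cells. It rose in the knockout (0.71, adjusted p = 0.00136) and was higher there at 48 h (1.10, adjusted p = 6.6e-05), while the wild-type difference of 0.25 was not called (adjusted p = 0.0834). Its interaction (0.46, adjusted p = 0.0438) was lost with a pseudocount of 0.1, with no expression filter, with the replicate block (adjusted p = 0.0638) and without any library other than knockout 2iL replicate 2. The ratio of Cdh1 to Cdh2 FPKM was 86.2 and 94.4 in wild-type 2iL libraries, 101 and 102 at 48 h, 36.7 and 28.3 in knockout 2iL libraries and 16.3 and 17.2 at 48 h, so that the level of Cdh1 per length was far above that of Cdh2 in every library.

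The other tested cadherins were low. Among them, Cdh10 reached 1 FPKM only in 48 h libraries, so its rise could hardly fail to appear. Cdh13 reached it only in knockout libraries, so its higher level there is given as a description. Cdh10, a neural type II cadherin, went from 0.181 and 0.334 FPKM to 2.97 and 3.10 in wild-type cells and from 0.0878 and 0.0719 to 2.68 and 2.66 in the knockout, rises of 1.69 and 1.77 (SE 0.10 each) with an interaction that was not called (0.08, limma adjusted p = 0.661). Cdh13, the cadherin that is held in the membrane by a GPI anchor, was at 0.225 and 0.510 FPKM and then 0.199 and 0.216 in wild-type cells, and at 1.24 and 0.854 and then 3.74 and 2.98 in the knockout. It rose in the knockout (1.09, adjusted p = 9.5e-04) and stood 16.2-fold above the wild type at 48 h; the call in 2iL (0.59, adjusted p = 0.0120) was lost when replicate 1 of wild-type 2iL (adjusted p = 0.0725) or of knockout 2iL (adjusted p = 0.0705) was left out. R-cadherin (Cdh4) varied most between libraries of a group, with 0.792 and 0.438 FPKM in wild-type 2iL cells, 2.60 and 1.57 at 48 h, 4.17 and 2.49 in knockout 2iL cells and 4.27 and 5.39 at 48 h. It was higher in the knockout in 2iL (1.40, SE 0.24, adjusted p = 0.00162). Its wild-type rise (0.92, adjusted p = 0.0137) was no longer called without replicate 2 of wild-type 2iL (adjusted p = 0.0813) or wild-type 48 h replicate 1 (adjusted p = 0.0823), and its difference at 48 h (0.93, adjusted p = 0.00963) without wild-type 48 h replicate 2 (adjusted p = 0.0611) or knockout 48 h replicate 2 (adjusted p = 0.0579). Cdh24 rose in wild-type cells (0.52) and in the knockout (0.41) and was lower in the knockout in 2iL (-0.63) and at 48 h (-0.74).

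Pcdh1, a protocadherin of epithelia, was the only numbered protocadherin that was tested, and it made the largest rise of any member in wild-type cells. It went from 0.387 and 0.456 FPKM to 34.1 and 33.8 in wild-type cells, an 80.6-fold ratio of means, and from 0.938 and 0.552 to 5.60 and 5.27 in the knockout, 7.30-fold. In 2iL, with all values under 1 FPKM, the genotype difference was not called (0.29, limma adjusted p = 0.0584). At 48 h the knockout libraries were below the wild-type libraries (-2.44, limma adjusted p = 1.8e-06). Pcdh1 reached 1 FPKM only in 48 h libraries, so its rise could hardly fail to appear. The changes were 4.62 (SE 0.11, limma adjusted p = 1.6e-07) and 1.89 (SE 0.11), and the interaction -2.73 (SE 0.16, adjusted p = 2.5e-05). Pcdh18, expressed in mesodermal and neural progenitors, was below the filter with 0.719 and 0.772 FPKM in wild-type 48 h cells and at most 0.0783 in every other library, and Pcdh19 went from 0.863 and 1.04 to 0.114 and 0.114 FPKM in wild-type cells and from 0.734 and 0.422 to 0.481 and 0.523 in the knockout.

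The sequences upstream of Cldn6, Cldn7, Cldn4 and Gjb5 are shown as examples because E-boxes of the kind CACCTG, which Snail and Zeb repressors bind in epithelial promoters, and the motif AAGGTCA, bound by Esrrb and other nuclear receptors, occur in members that changed. The sequences are the 250 bases before a start site in RefSeq for GRCm38.p6, the build also called mm10, written 5′ to 3′ on the gene's strand, with the E-box (CACCTG, or CAGGTG where it reads on the other strand) or AAGGTCA in capitals. RefSeq windows were matched for 13 of the 24 tested members.
Cldn6, chr17:23679115-23679364, plus strand: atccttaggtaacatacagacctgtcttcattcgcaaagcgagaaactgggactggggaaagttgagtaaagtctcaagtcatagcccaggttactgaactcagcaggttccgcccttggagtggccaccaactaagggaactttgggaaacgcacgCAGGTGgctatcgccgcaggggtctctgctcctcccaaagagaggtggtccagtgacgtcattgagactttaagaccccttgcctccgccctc
Cldn7, chr11:69965171-69965420, plus strand: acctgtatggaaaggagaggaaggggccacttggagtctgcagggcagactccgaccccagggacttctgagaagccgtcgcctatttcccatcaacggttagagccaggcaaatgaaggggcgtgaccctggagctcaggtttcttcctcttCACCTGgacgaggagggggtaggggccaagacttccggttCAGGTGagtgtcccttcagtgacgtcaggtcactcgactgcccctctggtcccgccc
Cldn4, chr5:134946935-134947184, minus strand: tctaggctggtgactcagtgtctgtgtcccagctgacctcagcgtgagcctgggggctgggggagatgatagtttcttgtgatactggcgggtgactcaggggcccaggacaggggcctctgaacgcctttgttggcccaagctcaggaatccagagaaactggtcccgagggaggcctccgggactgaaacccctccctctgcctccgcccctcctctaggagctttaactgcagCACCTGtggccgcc
Gjb5, chr4:127358165-127358414, minus strand: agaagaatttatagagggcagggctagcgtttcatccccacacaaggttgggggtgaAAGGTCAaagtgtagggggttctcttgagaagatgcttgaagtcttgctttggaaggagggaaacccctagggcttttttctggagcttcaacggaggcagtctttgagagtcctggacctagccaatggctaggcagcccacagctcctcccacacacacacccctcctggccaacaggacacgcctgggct
On either strand, CACCTG was found upstream of 5 tested members (Cldn4, Cldn6, Cldn7, Gjb1 and Gjb2) and in 17.2% of all 32851 windows of this length. It began 93 bases before the start in Cldn6, 97 and 57 bases before the second of the Cldn7 starts, and 14 bases before the start of Cldn4; the other Cldn7 window had none. The genes with a match did not share a direction. Cldn4, Cldn6 and Cldn7 were lower in the knockout in both conditions. Gjb2 was lower there at 48 h (-1.44) and not called in 2iL (-0.07, limma adjusted p = 0.531). Among genes with a match, only Gjb1, with a match 168 bases before a start, was higher in both conditions (1.82 and 1.56). Of the members with a window but no match, Cdh24, Cldn12 and Gja1 were also lower in both conditions and Cldn5 was higher in both. Cdh10, Cldn3, Cldn19 and Gjb5 did neither. Gjb1 and Gjb2 passed the filter only through libraries where they were high. AAGGTCA was found upstream of Gjb5, beginning 193 bases before the start, and of Gjb1, and in 4.08% of all windows. GGGCGG, the GC box of Sp and Klf factors, was found upstream of 10 of these 13 genes and in 32.7% of all windows. The 13 genes had 20 windows, and a gene was counted if any of its windows matched. For all 3 motifs, counts of genes and shares of windows are therefore unlike measures and were not compared. None of the 3 motifs overlapped another in the 4 windows shown, and a match is a run of letters, not a measured binding site.

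Cldn6 and Cldn7, claudins of early embryonic epithelia, rose from 2iL to 48 h in both genotypes and were lower in the knockout at each. Cldn6 rose from 8.58 and 7.53 to 54.6 and 54.0 FPKM in wild-type cells and from 0.362 and 0.203 to 2.02 and 1.71 in the knockout. Every wild-type library was above every knockout library, by 28.5-fold in 2iL (log2 -2.82, limma adjusted p = 1.8e-06) and by 29.1-fold at 48 h (log2 -4.27, adjusted p = 1.2e-07). The knockout 2iL values are under 1 FPKM and spread between the libraries, so ratios that rest on them are imprecise. As a ratio of mean FPKM the rise was 6.74-fold in wild-type cells and 6.61-fold in the knockout. The interaction on the log2(FPKM + 1) scale (-1.45, adjusted p = 2.4e-04) was accordingly lost with a pseudocount of 0.1 (-0.35, adjusted p = 0.358), so a difference in the proportional rise was not detected. Cldn9, which begins 137 bases beyond the end of Cldn6, did not exceed 0.627 FPKM; reads of these similar genes could be split between them by the counting.

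Cldn7 rose in wild-type cells from 2.11 and 2.17 to 31.8 and 29.6 FPKM, 14.3-fold, and in the knockout from 0.727 and 0.843 to 1.87 and 3.48, 3.41-fold. The knockout libraries were below the wild-type libraries in 2iL, and at 48 h below by 11.5-fold. Changes of 3.33 and 1.01 (SE 0.19 each) gave an interaction of -2.33 (SE 0.26, limma adjusted p = 4.9e-04), which held with a pseudocount of 0.1 (-2.19, adjusted p = 0.00285). Cldn3, a sealing claudin of many epithelia, moved in opposite directions: 2.61 and 2.27 FPKM became 5.20 and 5.71 in wild-type cells, whereas 7.33 and 7.44 became 1.94 and 2.01 in the knockout. The knockout was thus above the wild type in 2iL (1.29) and below it at 48 h (-1.11), with a wild-type rise of 0.91 (SE 0.09), a knockout fall of 1.49 (log2 -1.49, SE 0.09) and an interaction of -2.40 (SE 0.12, adjusted p = 1.4e-05).

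Cldn4, the claudin with the highest level in 2iL, fell a little in both genotypes, from 56.5 and 61.4 to 46.4 and 45.8 FPKM in wild-type cells and from 38.2 and 43.7 to 28.9 and 30.5 in the knockout. These falls of -0.35 and -0.45 (SE 0.07 each) did not differ beyond their error (interaction -0.10, limma adjusted p = 0.458). Cldn5, best known from the tight junctions of brain endothelium, was at 1.14 and 0.832 and then 2.07 and 2.14 FPKM in wild-type cells, and at 2.33 and 2.44 and then 13.4 and 13.5 in the knockout. It rose by 0.65 (SE 0.09) and 2.09 (SE 0.09), with an interaction of 1.44 (SE 0.13, adjusted p = 1.9e-04), and the knockout stood 6.39-fold above the wild type at 48 h. Cldn12, a claudin without the usual PDZ-binding end, was at 9.22 and 7.62 and then 10.3 and 12.0 FPKM in wild-type cells and at 4.48 and 4.69 and then 3.94 and 4.57 in the knockout. It was lower in the knockout in 2iL (-0.75) and at 48 h (-1.21); its wild-type rise (0.37, adjusted p = 0.0267) ended with no expression filter (adjusted p = 0.0579) and without replicate 2 of wild-type 2iL (adjusted p = 0.145) or wild-type 48 h replicate 2 (adjusted p = 0.153). Cldn19, known from the kidney, reached 1.08 and 1.59 FPKM in knockout 2iL cells and 0.369 and 0.377 at 48 h, with at most 0.146 in any wild-type library; the knockout fell by 0.76 (log2 -0.76, adjusted p = 0.00253), in a gene that passed the filter only through the knockout 2iL libraries and so had to differ.

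**Figure D3:**
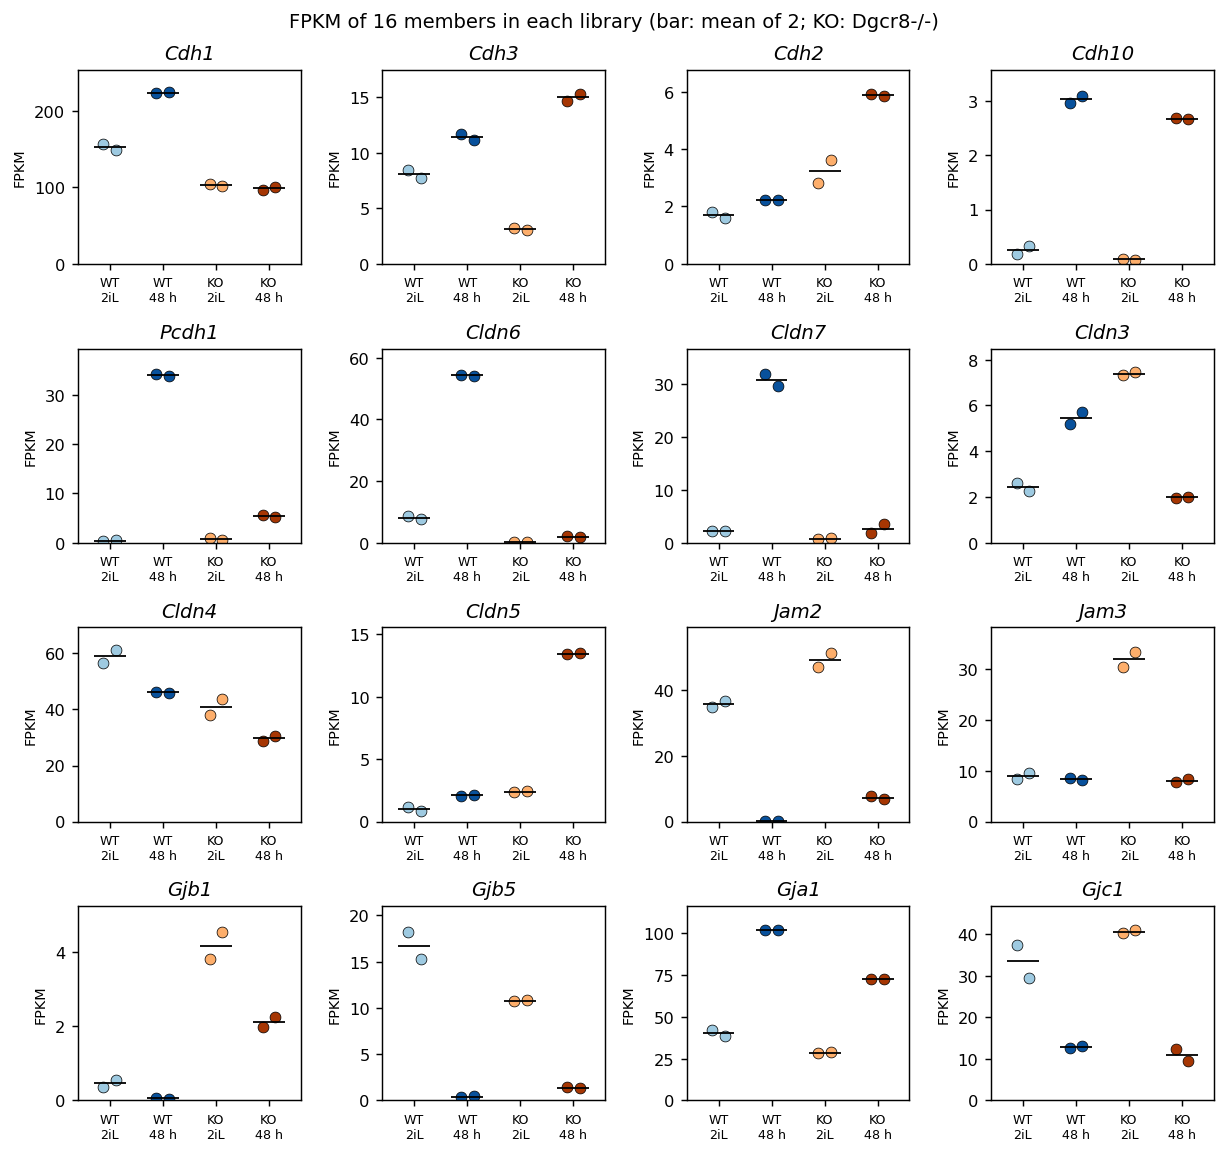
FPKM of 16 members, 1 panel each, with 1 point per library, a bar at the mean of the 2 libraries of a group, and a linear axis from 0. Jam2 is near 0 in the wild-type 48 h libraries and at 7.77 and 6.77 FPKM in the knockout 48 h libraries, and Cldn5 is highest in the knockout 48 h libraries.

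The JAMs, immunoglobulin-like adhesion proteins of tight junctions, diverged. Jam2 fell from 34.9 and 36.7 to 0.0966 and 0.0446 FPKM in wild-type cells and from 47.3 and 51.3 to 7.77 and 6.77 in the knockout, 6.78-fold lower; no fold is given for wild-type cells, whose 48 h values are near 0. The genotypes were close in 2iL (0.45, limma adjusted p = 0.00211) and far apart at 48 h (2.95, SE 0.08, adjusted p = 2.2e-07). The falls of -5.10 and -2.61 differed by 2.50 (SE 0.11, adjusted p = 9.2e-06). Jam3 took another course: its wild-type libraries, at 8.31 and 9.60 and then 8.60 and 8.13 FPKM, overlapped between the conditions (-0.09, adjusted p = 0.428), while the knockout fell from 30.5 and 33.5 to 7.79 and 8.36 (-1.86, SE 0.08, adjusted p = 4.5e-06). At 48 h the Jam3 libraries of the genotypes overlapped (-0.05, adjusted p = 0.653), and the interaction was -1.78 (SE 0.12, adjusted p = 5.1e-05). Jam3 was therefore 98.9% and 99.5% of the summed JAM signal in wild-type 48 h libraries, but 50.1% and 55.3% in the knockout ones.

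Among the connexins, Gjb5, the gene with AAGGTCA in the window printed above, fell in both genotypes. It went from 18.2 and 15.3 to 0.383 and 0.447 FPKM in wild-type cells, 40.3-fold, and from 10.7 and 10.9 to 1.42 and 1.35 in the knockout, 7.77-fold. The knockout libraries were below the wild-type libraries in 2iL and above them at 48 h. The wild-type fall of -3.64 and the knockout fall of -2.30 (SE 0.09 each) gave an interaction of 1.34 (SE 0.13, limma adjusted p = 2.7e-04). The knockout was lower in 2iL (-0.59, adjusted p = 0.00124) and higher at 48 h (0.75, adjusted p = 2.6e-04).

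Gja1, which encodes connexin 43, the main gap junction protein of many cell types, rose equally in the genotypes. Its levels were 42.1 and 38.3 and then 102 and 102 FPKM in wild-type cells, and 28.4 and 28.7 and then 72.8 and 72.9 in the knockout, ratios of 2.54 and 2.55. The knockout was lower in both conditions by the same log2 difference of -0.48 (limma adjusted p = 1.4e-04 in 2iL and 9.8e-05 at 48 h), and the interaction was -0.00 (SE 0.07, adjusted p = 0.980). Gjc1 (connexin 45) fell in both, from 37.4 and 29.5 to 12.6 and 13.1 FPKM in wild-type cells and from 40.2 and 40.9 to 12.4 and 9.38 in the knockout (-1.30 and -1.82, SE 0.14 each). Its interaction was not called (-0.52, adjusted p = 0.0707), but quantile scaling made it so (-0.68, adjusted p = 0.0263), as did leaving out wild-type 2iL replicate 1 or knockout 48 h replicate 1.

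Gjb1 and Gjb2 were low and separated the genotypes. Gjb1 (connexin 32, abundant in liver) was at 0.366 and 0.556 and then 0.0737 and 0.0304 FPKM in wild-type cells, and at 3.80 and 4.52 and then 1.98 and 2.25 in the knockout. It was higher in the knockout in 2iL (1.82, SE 0.12, limma adjusted p = 1.4e-05) and at 48 h (1.56, adjusted p = 1.6e-05). It reached 1 FPKM only in knockout libraries, so it could hardly fail to be higher there, and these differences are given as descriptions. Its wild-type fall (-0.47, adjusted p = 0.0106) was lost without replicate 2 of wild-type 2iL (adjusted p = 0.0631) or wild-type 48 h replicate 2 (adjusted p = 0.0543). Gjb2 (connexin 26, of skin and inner ear) appeared at 1.70 and 1.79 FPKM in wild-type 48 h cells after 0.0729 and 0.0256 in 2iL, while the knockout libraries listed 0, 0, 0.0219 and 0. It passed the filter only through the wild-type 48 h libraries and so had to differ, and its interaction of -1.37 is given as a description. Gja4 (connexin 37), below the filter, went from 0.756 and 0.834 to 0.0980 and 0.0539 FPKM in wild-type cells and from 0.877 and 1.00 to 0.162 and 0.193 in the knockout.

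The make-up of the claudin and cadherin families differed between the conditions and the genotypes. Summed claudin FPKM rose from 80.8 and 82.1 to 152 and 150.4 in wild-type cells and was 55.1 and 61.4 and then 53.6 and 57.2 in the knockout. Within it, Cldn6 went from 10.6% and 9.17% to 35.9% and 35.9% and Cldn7 from 2.61% and 2.64% to 20.9% and 19.7% in wild-type cells. In knockout 48 h cells Cldn4 made up 53.8% and 53.3% and Cldn5 25.0% and 23.6%. Cdh1 made up 91.2% and 91.5% of the cadherin sum in wild-type 2iL libraries, 89.7% and 90.3% at 48 h, 88.0% and 89.6% in knockout 2iL libraries and 72.9% and 73.0% at 48 h, where Cdh3 had risen to 11.1% and 11.1%. The cells were measured in bulk, so fewer cells with a transcript and less of it per cell cannot be told apart.

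**Figure D4:**
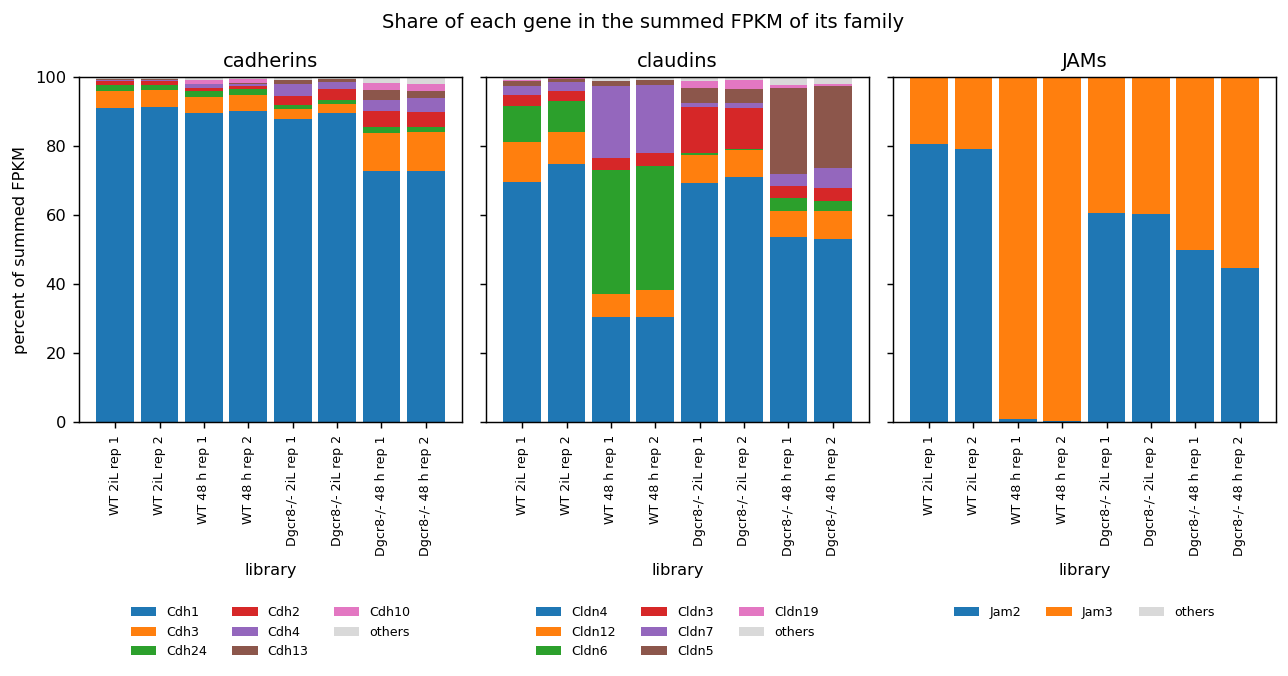
Percent of the summed FPKM of cadherins, claudins and JAMs (vertical axis) held by tested members in each library (bars); grey is the rest of the family. Cldn6 takes 35.9% of the claudin bars in both wild-type 48 h libraries, and Cldn5 takes 25.0% and 23.6% in the knockout 48 h libraries.

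Several members lie side by side in the genome (RefSeq, GRCm38.p6), and neighbours did not always move alike. On chromosome 8, Cdh3 (106510852 to 106556911) ends 46.4 kb before Cdh1 (106603350 to 106670247); both rose in wild-type cells, but in the knockout Cdh3 rose and Cdh1 was not called. On chromosome 5, Cldn4 (134945123 to 134946934) lies 39.3 kb from Cldn3 (134986214 to 134987476), and in wild-type cells Cldn4 fell while Cldn3 rose, whereas in the knockout both fell. Gjb2 on chromosome 14 lies between Gja3 and Gjb6, of which Gja3 did not exceed 0.0359 FPKM and Gjb6 was listed at 0.

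Genes that work with these proteins were taken from lists of known partners, which were drawn up with earlier results of these data known. Their counts are read against the shares of all tested genes given above: 30.9% rose and 25.6% fell in wild-type cells, 26.5% and 21.8% in the knockout, and 21.1% and 21.7% had an interaction in the higher and lower direction. Of 16 tight-junction scaffold and membrane partners 15 were tested; in wild-type cells 12 rose and 1 fell, and in the knockout 8 rose and 3 fell (median log2 difference 1.06 and 0.47, beside 0.03 over all tested genes in each). The interaction was called for 2 in the higher and 8 in the lower direction. Cgn (cingulin, a cytoplasmic plaque protein) rose from 2.12 and 2.13 to 18.3 and 16.8 FPKM in wild-type cells and from 0.314 and 0.478 to 5.39 and 5.71 in the knockout. Patj (a scaffold of the Crumbs complex) rose from 1.75 and 1.35 to 12.1 and 14.7 FPKM and, in the knockout, from 5.25 and 3.86 to 6.34 and 6.89 (interaction -2.03, SE 0.21, limma adjusted p = 3.4e-04). The occludin relatives Marveld3 and Marveld2 rose in wild-type cells (2.20 and 1.56) and were not called in the knockout (-0.09, adjusted p = 0.528, and 0.16, adjusted p = 0.278), with interactions of -2.29 and -1.40. Marveld3 passed the filter only through the wild-type 48 h libraries and so had to differ. The multi-PDZ protein gene Mpdz rose in both genotypes (1.91 and 0.79). Esam, an endothelial cell adhesion molecule, was at 0.450 and 0.386 and then 0.653 and 0.297 FPKM in wild-type cells. In the knockout it went from 0.705 and 0.598 to 5.24 and 4.76 (interaction 1.81, limma adjusted p = 3.0e-04). It passed the filter only through the knockout 48 h libraries and so had to differ, and its interaction is given as a description. F11r, the gene of the JAM that the symbol rule does not reach and chosen here for that, rose from 12.8 and 12.5 to 24.7 and 22.8 FPKM in wild-type cells and was at 21.5 and 20.6 and then 20.7 and 21.4 in the knockout (interaction -0.86, adjusted p = 2.0e-04).

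**Figure D5:**
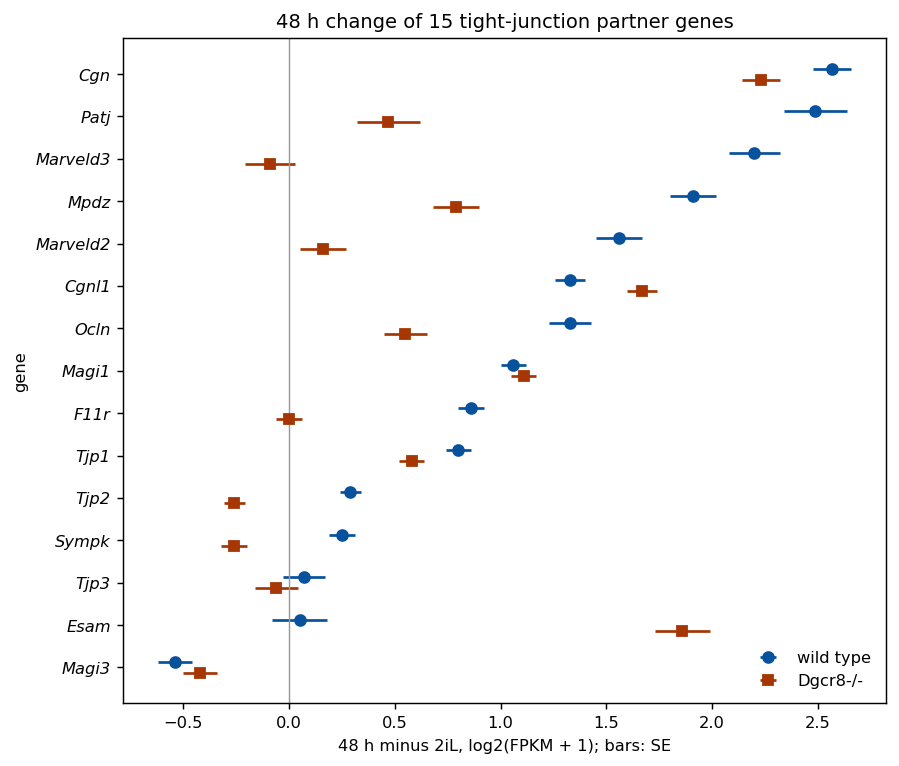
Change from 2iL to 48 h, in log2(FPKM + 1) with SE bars, of the 15 tested tight-junction partner genes in wild-type cells (circles) and Dgcr8-/- cells (squares), sorted by the wild-type change. Marveld3 and Patj show a wide gap between the genotypes, Esam the opposite gap, and Cgn and Magi1 a narrow one.

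The catenins and nectins of adherens junctions changed less in size. Of 14 listed, 12 were tested, with 7 rises and 3 falls in wild-type cells, 7 rises and 1 fall in the knockout (medians 0.33 and 0.27), and interactions in the higher direction for 4 and in the lower for 3. Jup (plakoglobin, shared by adherens junctions and desmosomes) fell in wild-type cells from 54.9 and 53.1 to 30.6 and 32.3 FPKM and rose in the knockout from 73.9 and 73.8 to 118 and 114, an interaction of 1.41 (SE 0.06, limma adjusted p = 8.7e-06). Ctnna1 (alpha-E-catenin, which links the complex to actin) did so on a smaller scale, with -0.37 and 0.38. Vcl (vinculin, an actin-binding protein recruited under tension) rose in wild-type cells (0.84) and was not called in the knockout (0.11, adjusted p = 0.146). Nectin2 had the same pattern (0.61, and -0.16 with adjusted p = 0.103). Ctnnd2, the neural delta-catenin, fell in both (-1.18 and -1.40), and Ctnna2, the neural alpha-catenin, rose from a listed 0 in both genotypes to 1.31 and 1.16 FPKM in wild-type cells and 0.221 and 0.406 in the knockout. Ctnna2 passed the filter only through the wild-type 48 h libraries and so had to differ, and its rise, counted above, is given as a description.

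Polarity complexes gave 6 rises and 2 falls among 12 tested of 14 in wild-type cells, and 4 and 4 in the knockout; at 48 h 3 were higher and 7 lower in the knockout, where 33.3% and 38.5% of all tested genes were. Crb3, the Crumbs protein of mammalian epithelia, stood at 21.2 and 19.7 FPKM in wild-type 48 h cells and at 1.35 and 1.28 in knockout ones (log2 -3.21, limma adjusted p = 3.2e-07), after 7.77 and 9.07 and 0.502 and 0.640 in 2iL. Pard3, a scaffold of the apical complex, rose in wild-type cells (0.86; knockout -0.24, adjusted p = 0.0835; interaction -1.10, adjusted p = 8.5e-04). Of 12 desmosome components 8 were tested, with 4 rises and 2 falls in wild-type cells and 3 and 2 in the knockout. Perp, a desmosome protein and p53 target, rose more in the knockout, from 3.24 and 3.44 to 16.4 and 15.7 FPKM, than in wild-type cells, from 2.20 and 2.09 to 3.28 and 3.94 (interaction 1.42, adjusted p = 1.6e-04). Of 17 large and atypical cadherins 7 were tested, with 3 rises and 2 falls in wild-type cells and 5 and 1 in the knockout. Cdhr1 of photoreceptors went from 3.92 and 3.64 to 0.465 and 0.423 FPKM in wild-type cells and from 6.58 and 5.93 to 12.9 and 13.3 in the knockout (interaction 2.69, SE 0.11, adjusted p = 7.3e-06). Of 7 further gap-junction channel genes only Panx1 was tested, and it is named for that reason, with 0 calls over time in either genotype and a higher level in the knockout at 48 h (0.49).

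Regulators of epithelial genes also differed. Of 10 epithelial transcription and splicing regulators 8 were tested, with 5 rises and 3 falls in wild-type cells and 5 and 2 in the knockout. Grhl2, an activator of Cdh1 and claudin genes, rose from 1.59 and 0.748 to 11.8 and 11.8 FPKM in wild-type cells and from 1.04 and 0.926 to 7.39 and 7.07 in the knockout (interaction -0.53, limma adjusted p = 0.112). The splicing factor gene Esrp1 rose from 8.85 and 7.59 to 34.4 and 33.5 and from 1.96 and 2.01 to 19.9 and 19.1. Klf5 fell from 46.1 and 43.0 to 6.28 and 6.26 and from 36.7 and 34.8 to 11.2 and 11.9. Of 9 repressors of E-cadherin 5 were tested, with 1 rise and 2 falls in wild-type cells, 1 and 2 in the knockout, and 2 higher and 1 lower in the knockout at 48 h. Zeb1 was at 2.51 and 2.40 and then 0.915 and 0.827 FPKM in wild-type cells and at 7.99 and 6.95 and then 8.17 and 7.72 in the knockout, 2.26 higher on the log2 scale at 48 h (adjusted p = 8.8e-07). Snai1 was at 1.62 and 2.06 and then 1.30 and 1.15 in wild-type cells and at 5.91 and 5.72 and then 5.96 and 7.04 in the knockout. The other tested repressors did not share this pattern. Tcf3, the most abundant of them and named after its values were seen, was lower in the knockout in 2iL (-0.44) and at 48 h (-0.62). Tcf4 was higher in the knockout in 2iL (0.61) and not called at 48 h (-0.11, adjusted p = 0.392), and Twist1 was called in neither (0.15, adjusted p = 0.303, and 0.28, adjusted p = 0.0678). The part of any of them in the levels of junction genes was not tested. Enzymes that cleave cadherins or act on gap junctions had 5 rises and 3 falls among 8 tested of 9 in wild-type cells and 1 and 3 in the knockout, led by the proprotein convertase gene Pcsk6 (-1.43 and -1.51).

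Markers of other cell types were read beside these results. The 8 endothelial markers summed to 32.6 and 34.3 FPKM in wild-type 2iL libraries, 43.1 and 43.2 at 48 h, 31.1 and 35.0 in knockout 2iL libraries and 43.1 and 38.8 at 48 h, mostly Egfl7, which was lower in the knockout. Of the 5 tested, 4 were higher in the knockout at 48 h, where 33.3% of all tested genes were (71.8% called in either direction). They were Tek, Vwf and Kdr, at mean levels of 7.75, 2.05 and 2.30 FPKM, and Esam, given above. Kdr reached 1 FPKM only in knockout libraries and Esam only in knockout 48 h ones, so both could hardly fail to be higher. Tek (1.56), Vwf (1.32) and Kdr (1.07) were already higher in knockout 2iL cells. From 2iL to 48 h in the knockout, Kdr (0.45) and Esam (1.86) rose, Vwf fell (-1.09) and Tek was not called (0.22, adjusted p = 0.183), beside the rise of 2.09 for Cldn5. The defining markers Cdh5 and Emcn were at a mean of 0.0448 and at 0 FPKM there. The 8 primitive endoderm markers summed to 1.68 to 3.66 FPKM in all libraries. The 8 trophectoderm markers summed to 27.9 and 28.8, 33.2 and 32.9, 37.8 and 41.3, and 36.3 and 36.3 FPKM in the order used above; the sum held opposite moves, since the keratin genes Krt8 and Krt18 rose in both genotypes (0.85 and 0.95, and 3.05 and 3.24) while Tfap2c (-3.26 and -1.91) and Eomes (-0.66 and -0.83) fell in both. Gata3, the other tested marker of this list, rose in the knockout (1.24, limma adjusted p = 0.00114). In wild-type cells it was not called (-0.37, adjusted p = 0.119). Gata3 reached 1 FPKM only in knockout 48 h libraries, so it could hardly fail to differ. Of the 5 tested, 2 had a called interaction, both in the higher direction: Gata3 (1.60) and Tfap2c (1.35). Cdx2 and Elf5 did not exceed a group mean of 0.498 FPKM. The 10 fibroblast and feeder markers, 4 of them tested, summed to 2.94 and 3.16 and then 23.8 and 22.9 FPKM in wild-type cells and to 2.35 and 2.29 and then 19.1 and 19.2 in the knockout. These sums were alike in size but differed in part in make-up: at 48 h Dcn was at 2.22 and 1.74 FPKM in wild-type cells and 11.9 and 12.6 in the knockout, Tagln at 9.02 and 9.38 and at 0.902 and 0.928, and Acta2 at 2.58 and 1.93 and listed at 0. Tagln and Acta2 passed the filter only through the wild-type 48 h libraries and so had to differ. Thy1, the other tested marker, rose in both genotypes (1.58 and 1.44), to 9.20 and 9.26 FPKM in wild-type cells and 5.84 and 5.35 in the knockout. Col1a1, Col1a2 and Col3a1 were at group means of 0.330 FPKM or less. Of the 6 neuroectoderm markers 5 were found and 3 tested. The sum of those found went from 9.93 and 9.92 to 25.7 and 25.1 FPKM in wild-type cells and from 6.66 and 6.66 to 21.6 and 23.2 in the knockout. At 48 h most of it was Nes, which rose in both genotypes (1.57 and 2.01), as did Sox1 (0.64 and 1.22). Pax6 instead fell in wild-type cells (-0.52, limma adjusted p = 0.0160) and rose in the knockout (0.73, adjusted p = 0.00455), with an interaction of 1.25 (adjusted p = 0.00228). The 7 markers of primitive streak and mesoderm summed to 2.45 and 3.02 and then 0.664 and 0.909 FPKM in wild-type cells and to 11.2 and 11.9 and then 3.47 and 3.69 in the knockout. Only 3 were tested, Evx1 (1.95), Gsc (1.39) and Kdr (1.07), and all were higher in knockout 2iL cells (30.6% of all tested genes). Evx1 reached 1 FPKM only in knockout 2iL libraries, so it, like Kdr, could hardly fail to be higher. T, not tested, was lower in knockout 2iL libraries, at 0.119 and 0.289 FPKM against 0.555 and 0.747 in wild-type ones. Mixl1, Mesp1 and Tbx6 did not exceed a group mean of 0.385 FPKM. The part of such cells in the junction gene levels was not tested.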

How the data were processed

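PolyA RNA was sequenced in 8 libraries. The authors deposited 1 table of FPKM values with Ensembl identifiers; per the submitters' processing notes STAR 2.5.0, Cufflinks 2.2.1 and the build mm10 were used. The annotation, the use of strand and the read numbers are not given in the sources used here, so neighbouring or similar genes could share reads and the depth behind each FPKM is unknown. Small RNA libraries of the series were not used here, and some members are not reported here; they stay in the counts.

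Symbols were paired with 40124 of the 41258 entries. Values were taken as log2(FPKM + 1), entries with at least 1 FPKM in at least 2 libraries were kept (13172), and 4 group means were fitted with limma 3.58.1 in R 4.3.3, with a mean-dependent prior variance. Two-sided p-values for 5 comparisons were adjusted by Benjamini-Hochberg over all tested entries, with calls at 0.05. The script was tested on simulated data. The members and lists were chosen with earlier results of these data known. Members with a group mean of at least 5 FPKM, or called at a log2 difference of at least 1, were given in every library; from each list at most 4 genes with the largest called wild-type change and at most 2 others by the interaction were named. Alternatives were the pseudocount, the filter, the scaling, a replicate block and leaving out each library.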

Additional observations from a re-analysis of the deposited data

Results flagged for a closer look

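For the members given here the change from 2iL to 48 h differed between the genotypes by limma's test of the difference itself (adjusted p below 0.05 over all tested genes), where 42.8% of all tested genes did so. The values are the knockout change minus the wild-type change in log2(FPKM + 1). The difference was positive for Jam2 (2.50), Cdh3 (1.50), Cldn5 (1.44), Gjb5 (1.34), Cdh13 (1.26) and Cdh2 (0.46). It was negative for Pcdh1 (-2.73), Cldn3 (-2.40), Cldn7 (-2.33), Jam3 (-1.78), Cldn6 (-1.45), Gjb2 (-1.37), Cldn19 (-0.81) and Cdh1 (-0.61). Those of Cdh2 and Cldn6 were lost under settings named in the report. Gjb2 passed the expression filter only through the wild-type 48 h libraries and Cldn19 only through the knockout 2iL libraries. Both had to differ, and their values are given as descriptions. Pcdh1 reached 1 FPKM only in 48 h libraries and Cdh13 only in knockout libraries, so their values are descriptions too.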

How the results depend on the processing

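Of 120 member differences (24 genes in 5 comparisons), 94 were called; 86 of these were called under every setting in which they were tested, 8 lost the call under some setting, 10 uncalled ones gained it under some setting, and 0 reversed. Counts of calls moved by more than 1.5 times only with the filter. At a mean of at least 5 FPKM, which left 13 members, wild-type rises went from 13 to 7, knockout rises from 10 to 5 and knockout falls from 10 to 6. Under it, members higher in the knockout went from 9 to 2 in 2iL and from 9 to 4 at 48 h, and interactions from 8 to 4 in the higher and from 8 to 5 in the lower direction. With no filter, which tested 68 members, knockout rises went from 10 to 17 and members higher in the knockout at 48 h from 9 to 18. Deviations of same-numbered libraries correlated at -0.153 to 0.18 between groups, so the replicate numbers were not taken to pair the samples. A replicate block cost 1 call, the Cdh2 interaction (0.46, limma adjusted p = 0.0638). Depth is unknown, and 2 libraries a group limit the precision.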

Other observations

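Cldn5 lies on the chromosome that carries Dgcr8, chromosome 16, 488 kb from it (RefSeq, GRCm38.p6). Of the 8 protein-coding genes between them 5 were tested. At 48 h 4 of these were higher and 1 lower in the knockout, where 33.3% and 38.5% of all tested genes were. Of the 5, 0 differed by at least 2-fold (all tested genes: 19.7%). Their median log2 difference was 0.35 (all tested genes: -0.05) and their range -0.47 to 0.73, beside 2.22 for Cldn5. In 2iL 3 were higher and 1 lower (all tested genes: 30.6% and 32.8%), and 2 were higher by at least 2-fold (all tested genes: 7.56%). The median was 0.60 (all tested genes: -0.02) and the range -0.26 to 1.89, beside 0.77 for Cldn5.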
